A study of Homo sapiens with 6 samples.

Results

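The genes described here encode the cohesin ring and the proteins that close, protect and open it. They were SMC1A, SMC3, RAD21, STAG1, STAG2, WAPL, CDCA5 (sororin), PTTG1 (securin), ESPL1 (separase) and SGO1 (shugoshin), 10 genes chosen by name. A probe set counted where the array annotation gave it a single gene symbol and that symbol was 1 of these. That rule found 31 of 49293 probe sets and 9 of 18132 genes. PTTG1 had no probe set of its own, because the only one that names it also names its pseudogene PTTG3P, so securin is described below only through that shared probe set.

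Messenger RNA was profiled on Affymetrix expression arrays in the human melanoma line A375, an established cell line. The 3 UBE2S knockdown samples carried a short hairpin RNA against UBE2S delivered by lentivirus, and they were set against 3 control A375 samples. The labels call the replicates biological, but name no separate cultures, so the p-values measure the spread between these samples. What the control cells received, the number of hairpins, the time after infection and whether the cells were clonal are not given in the sources used here. Values were log2 expression, centred for each probe set on the median of the 6 arrays. They therefore show differences between arrays and hold no level of a gene, and levels of different genes cannot be compared.

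Cohesin is a ring of SMC1A, SMC3 and RAD21, with STAG1 or STAG2 bound to it, that holds sister chromatids together after DNA replication and also shapes chromatin loops. WAPL removes cohesin from chromosome arms, CDCA5 counteracts WAPL, and SGO1 shields the cohesin at centromeres until anaphase. Separase then cuts RAD21, after the anaphase-promoting complex (APC/C) has marked securin, its inhibitor, for destruction. UBE2S is the ubiquitin-conjugating enzyme that lengthens chains on APC/C substrates, and securin, sororin and shugoshin are known substrates as proteins. The arrays measured transcripts and no proteins.

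UBE2S was -1.13, -1.05 and -1.01 in the knockdown arrays, against 1.06, 1.01 and 1.01 in the control arrays. Its difference of -2.09 (SE 0.04, limma adjusted p = 9.23e-08) left 23.5% of the control signal. The 6 arrays had medians between -0.0089 and 0.0037 on the centred scale. Spike-in transcripts added for hybridization were 0.17 higher in knockdown arrays and poly-A spike-ins 0.080 higher, both without overlap. The 3' minus 5' difference of the ACTB control probe sets was 0.19 higher in knockdown arrays, also without overlap, and that of GAPDH 0.023 higher, with overlap. The part of these shifts in the gene changes below was not tested. Of the melanocyte lineage markers checked, SOX10 and S100B had probe sets in the brightest of 3 signal classes (explained with the probe sets below). MITF, PMEL, MLANA and TYR reached the middle class. Of the markers of other cells, KRT18 was in the brightest class, CD3E, KRT5, PECAM1 and CDH5 reached the middle, and PTPRC, CD14 and EPCAM were in the dimmest. The classes thus did not separate the lineages, and without levels the label could be checked no further. Of these 14 markers S100B (1.09), MITF (-0.72) and KRT18 (-0.29) changed with the knockdown (limma adjusted p between 5.51e-07 and 4.40e-04). Their part in the changes below was not tested.

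In the knockdown arrays 6 of the 9 measured genes fell and none rose. The sororin gene CDCA5 had the largest fall of the 9, to 63.6% of the control signal, followed by the ring genes RAD21 (75.5%) and SMC1A (76.2%). STAG1, ESPL1 and SGO1 fell less, to between 85.9% and 90.7%, while SMC3, STAG2 and WAPL did not pass the test. The test was limma across all genes with Benjamini-Hochberg adjustment, an adjusted p under 0.05 counting as changed. By this rule 66.7% of these 9 genes fell, against 18.6% of all genes, of which 21.4% rose and 40.1% changed in either direction. The genes were chosen with earlier results of these data known, so the contrast with all genes is a description and no test. The median change was -0.14 for the 9 genes and -0.0038 for all genes. All 9 differences were below zero, and in 8 genes every knockdown array lay below every control array, as it did in 23.9% of all genes. In RNA of whole cultures, fewer cells that express a gene and less RNA per cell cannot be told apart.

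**Figure D1:**
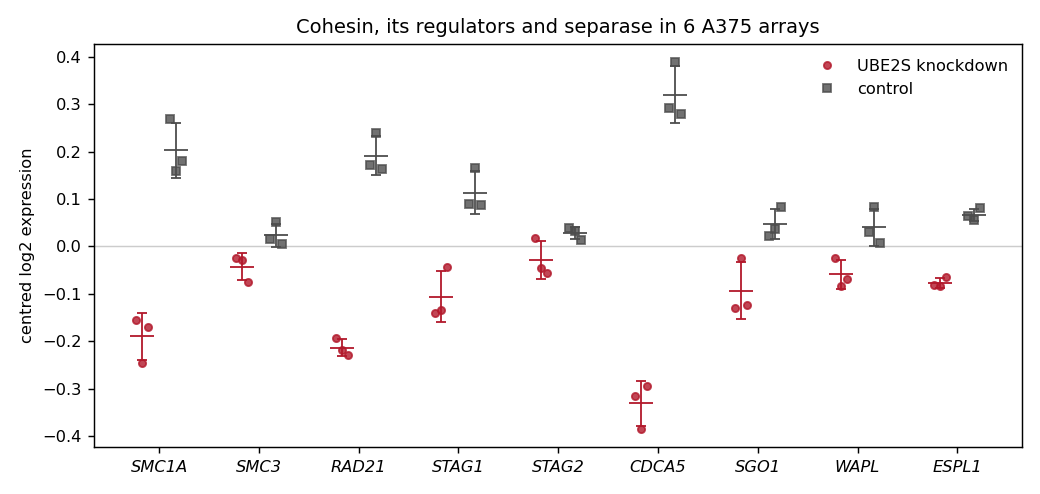
Centred log2 expression of the 9 measured genes (mean of each gene's probe sets) in the 3 UBE2S knockdown arrays (red circles, left) and the 3 control arrays (grey squares, right). Horizontal marks are means and bars are SDs (n = 3). The groups are farthest apart in CDCA5, RAD21 and SMC1A, and overlap only in STAG2.

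Among the ring subunits, RAD21 encodes the kleisin that bridges the heads of the SMC proteins and is the protein separase cuts. It was -0.19, -0.22 and -0.23 in knockdown arrays, against 0.17, 0.24 and 0.16 in control arrays. The difference was -0.41 (SE 0.04, limma adjusted p = 6.81e-05), larger than the spread within either group.

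SMC1A encodes one of the coiled-coil ATPase arms of the ring. Its values were -0.15, -0.25 and -0.17 in knockdown arrays, against 0.27, 0.16 and 0.18 in control arrays. The groups stood clear of each other, with a difference of -0.39 (SE 0.05, limma adjusted p = 2.25e-04). The partner arm, SMC3, was -0.024, -0.029 and -0.075 in knockdown arrays, against 0.015, 0.051 and 0.0049 in control arrays. The groups did not overlap either, but the difference of -0.066 (95% interval -0.15 to 0.017) did not pass the test (limma adjusted p = 0.19).

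STAG1 and STAG2 are alternative subunits that bind the kleisin. STAG1 was -0.14, -0.14 and -0.044 in knockdown arrays, against 0.089, 0.17 and 0.086 in control arrays. It fell, with a difference of -0.22 (SE 0.04, limma adjusted p = 0.00406). STAG2 was 0.017, -0.045 and -0.057 in knockdown arrays, against 0.038, 0.032 and 0.014 in control arrays. Knockdown replicate 1 lay within the control values, and the difference of -0.056 (95% interval -0.14 to 0.028) did not pass the test (limma adjusted p = 0.275).

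Whether subunits differed from each other was asked within each array. The SMC1A value minus the SMC3 value averaged -0.15 ± 0.06 in knockdown arrays and 0.18 ± 0.07 in control arrays (SD, n = 3 each), a difference of -0.33. For RAD21 minus SMC3 the difference was -0.34, and for STAG1 minus STAG2 it was -0.16. In a comparison of the cohesion protector with the releasing factor, CDCA5 minus WAPL differed by -0.55. In all 4 pairs the knockdown arrays lay below the control arrays without overlap. Each pair set a gene that passed the test against one that did not, so this direction follows from the values already given. The share of other gene pairs without overlap was not computed. The two-sided exact permutation p was 0.1 in each, raw and adjusted over the 4 pairs, which is the smallest that 3 against 3 arrays can give, so none of the pairs could pass 0.05. Adding a constant to all values of an array leaves these differences between genes as they are.

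Among the regulators, CDCA5 encodes sororin, which binds acetylated cohesin and keeps WAPL from releasing it. It was -0.32, -0.38 and -0.29 in knockdown arrays, against 0.29, 0.39 and 0.28 in control arrays. The difference was -0.65 (SE 0.04, limma adjusted p = 1.56e-05), which ranked 301 among 18132 genes from the largest fall. WAPL was -0.024, -0.085 and -0.069 in knockdown arrays, against 0.030, 0.083 and 0.0079 in control arrays. These groups did not overlap, but the difference of -0.0996 (SE 0.04) missed the threshold (limma adjusted p = 0.074).

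SGO1 brings the phosphatase PP2A to centromeric cohesin. It was -0.13, -0.025 and -0.12 in knockdown arrays, against 0.023, 0.038 and 0.083 in control arrays. The difference of -0.14 (SE 0.04, limma adjusted p = 0.0300) was small. The call was lost when any array other than knockdown replicate 2 was left out, with differences between -0.15 and -0.12 and adjusted p between 0.0546 and 0.0929. With the replicate number as a block it was lost as well (adjusted p = 0.0585).

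ESPL1 encodes separase, the protease that opens the ring. It was -0.082, -0.084 and -0.064 in knockdown arrays, against 0.064, 0.055 and 0.081 in control arrays. The spread within groups was narrow, and the difference was -0.14 (SE 0.03, limma adjusted p = 0.00897). Its call was kept under all 16 alternatives tried, as were those of CDCA5, RAD21 and SMC1A. Leaving out single probe sets was not among these 16. Without its probe set 11723909_at ESPL1 stood at 0.023 and lost its call (limma adjusted p = 0.689). CDCA5, RAD21 and SMC1A kept their calls without any one of their probe sets.

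Securin, the inhibitor of separase, could not be separated from its pseudogene. The probe set annotated to both PTTG1 and PTTG3P was -0.20, -0.20 and -0.099 in knockdown arrays, against 0.14, 0.099 and 0.20 in control arrays. It fell by 0.31 on the log2 scale (SE 0.05, limma over all probe sets, adjusted p = 0.00203). The probe sets annotated to PTTG3P alone and to the paralogue PTTG2 alone fell by 0.31 and 0.26 (adjusted p = 0.00267 and 0.0329 in limma). In the fit over genes PTTG2 lost its call without knockdown replicate 2 (-0.21, limma adjusted p = 0.078). All 3 probe sets belong to the _x_at kind, which the array marks as likely to bind other transcripts. Which of the 3 genes' transcripts they read was not tested.

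Promoters are shown for CDCA5, ESPL1, SGO1 and SMC3, since their windows hold a motif of cell cycle genes. That motif, the cell cycle genes homology region (CHR), is the letters TTTGAA or TTCGAA, and it is known to bind the repressor complex that keeps mitotic genes silent in resting cells. RefSeq windows of 300 bases (build GRCh38.p14, 250 before to 50 from the start) were searched on both strands for these letters and for CCAAT, a motif bound by NF-Y that often lies near it. Windows were found for 9 of the 10 genes, 13 in all, and RAD21 had none, so its promoter was not searched. Capitals mark the matches, where ATTGG and TTCAAA are CCAAT and TTTGAA read from the other strand.
CDCA5 (chr11:65083991-65084290, minus strand): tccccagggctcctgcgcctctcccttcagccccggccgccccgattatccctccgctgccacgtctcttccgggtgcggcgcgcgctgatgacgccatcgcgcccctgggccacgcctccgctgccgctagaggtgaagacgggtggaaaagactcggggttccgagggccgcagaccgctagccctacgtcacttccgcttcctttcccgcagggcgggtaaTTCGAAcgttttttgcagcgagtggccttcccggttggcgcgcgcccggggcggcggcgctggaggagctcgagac
ESPL1 (chr12:53268049-53268348, plus strand): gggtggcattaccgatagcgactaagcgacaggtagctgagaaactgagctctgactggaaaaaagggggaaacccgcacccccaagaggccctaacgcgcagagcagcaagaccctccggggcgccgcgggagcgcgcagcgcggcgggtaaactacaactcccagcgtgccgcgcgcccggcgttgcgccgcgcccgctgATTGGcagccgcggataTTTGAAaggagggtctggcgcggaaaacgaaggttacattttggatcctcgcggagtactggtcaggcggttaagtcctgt
SGO1 (chr3:20186157-20186456, minus strand): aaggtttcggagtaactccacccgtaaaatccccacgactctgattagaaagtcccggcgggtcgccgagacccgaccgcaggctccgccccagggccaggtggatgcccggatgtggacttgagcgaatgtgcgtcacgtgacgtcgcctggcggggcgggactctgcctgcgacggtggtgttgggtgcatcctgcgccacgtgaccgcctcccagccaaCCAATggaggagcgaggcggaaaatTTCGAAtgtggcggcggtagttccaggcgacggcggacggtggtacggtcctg
SMC3 (chr10:110567445-110567744, plus strand): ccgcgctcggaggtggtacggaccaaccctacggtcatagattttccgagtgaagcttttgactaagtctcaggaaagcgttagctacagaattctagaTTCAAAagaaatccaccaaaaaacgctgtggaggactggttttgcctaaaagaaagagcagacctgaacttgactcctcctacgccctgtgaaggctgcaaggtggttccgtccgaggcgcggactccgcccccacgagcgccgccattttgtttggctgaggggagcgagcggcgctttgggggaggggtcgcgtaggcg

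In CDCA5 the letters TTCGAA start at -26 from the transcription start, and in ESPL1 the letters TTTGAA start at -31. In SGO1 TTCGAA spans the start itself, beginning at -3. In SMC3 the match lies farther out and on the other strand, beginning at -151. TTTGAA or TTCGAA occurred in 16.4% of all 35116 windows, TTCGAA alone in 1.45%. The windows of SMC1A, STAG1, STAG2, WAPL and PTTG1 did not hold these letters. CCAAT occurred in windows of 6 of the 9 genes, counted by gene, and in 34.6% of all windows, counted by window. In ESPL1 it lies on the other strand at -48 and in SGO1 at -28, while the PTTG1 window from chr5:160421605-160421904 holds 3 of them and the CDCA5 window none. These matches are letters in a window and describe no binding, and whether they go with the expression changes was not tested. The shares of all windows are no background for counts of genes, since a gene can have more than 1 window.

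The probe sets of a gene are separate measurements on the same array, often of different parts or isoforms of the transcript. Of the 31 probe sets, 15 fell and 0 rose (48.4% lower, against 17.4% of all 49293 probe sets, of which 36.9% changed in either direction). Probe sets were also placed in a coarse signal class read from the rounding of the values, which depends on the size before centring: high for 8 to 16, middle for 4 to 8 and low for 2 to 4 on the log2 scale. Of 19 high probe sets 10 fell, of 10 middle ones 5 fell, and neither of the 2 low ones passed the test. Over all probe sets, 28.3% of the high, 16.3% of the middle and 4.27% of the low class fell.

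**Figure D2:**
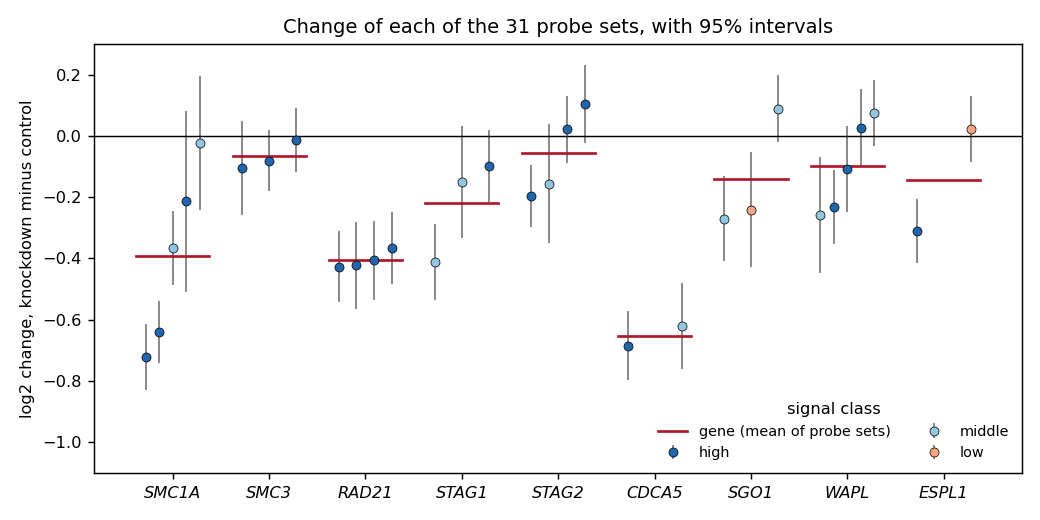
Log2 change (knockdown minus control) of each of the 31 probe sets, by gene, with 95% intervals from limma. Colours give the signal class and red lines the mean of each gene's probe sets. The 4 probe sets of RAD21 lie between -0.43 and -0.37, while the 5 of SMC1A range from -0.72 to -0.024.

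For RAD21 all 4 probe sets, each of the high class, fell, with changes between -0.43 and -0.37. Both CDCA5 probe sets fell, with changes of -0.68 in the high and -0.62 in the middle class. The 3 SMC3 probe sets, also of the high class, lay between -0.10 and -0.013, and none passed the test. For these 3 genes the gene mean stands for probe sets that gave like values.

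SMC1A was read less evenly. The high-class probe set 11718879_s_at was -0.35, -0.40 and -0.32 in knockdown arrays, against 0.36, 0.40 and 0.32 in control arrays, a change of -0.72 (SE 0.05). A second one of that class, 11752632_a_at, changed by -0.64 (SE 0.04). The middle-class 11718877_a_at changed by -0.37 (SE 0.05), and these 3 passed the test (limma adjusted p between 1.80e-05 and 9.67e-04). The other two did not pass. Probe set 11756104_a_at was 0.056, -0.39 and -0.053 in knockdown arrays, against 0.28, -0.075 and 0.053 in control arrays, a wide spread in both groups. Probe set 11718878_a_at was -0.016, 0.023 and 0.016 in knockdown arrays, against 0.26, -0.14 and -0.031 in control arrays, where only the controls spread widely. Without any one of its 5 probe sets the gene still fell, by between 0.31 and 0.49.

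For ESPL1 the high-class probe set 11723909_at was -0.17, -0.19 and -0.12 in knockdown arrays, against 0.15, 0.17 and 0.12 in control arrays. It fell by 0.31 (SE 0.04, limma adjusted p = 9.79e-04). The other, low-class probe set gave 0.023 (SE 0.05), so the gene mean of -0.14 is an average of a fall and a value near zero. For SGO1 the middle-class 11730515_a_at fell by 0.27 (SE 0.06, limma adjusted p = 0.00829). The low-class probe set gave -0.24 (adjusted p = 0.0508) and a second middle-class one, 11760461_at, gave 0.088 (adjusted p = 0.194). Without 11730515_a_at or without the low-class probe set SGO1 lost its call (-0.076 and -0.091, limma adjusted p = 0.264 and 0.0989).

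STAG1 rested on 1 probe set. The middle-class 11743276_s_at was -0.25, -0.15 and -0.15 in knockdown arrays, against 0.15, 0.25 and 0.28 in control arrays, and fell by 0.41 (SE 0.05, limma adjusted p = 5.54e-04). The middle-class 11752130_a_at and the only high-class probe set, 11759484_s_at, gave -0.15 and -0.098 and did not pass. Without 11743276_s_at the gene changed by -0.12 and lost its call (limma adjusted p = 0.0913). STAG2 had 1 probe set of 4 that fell, 11731108_s_at by 0.196 (limma adjusted p = 0.00909), while the other three ranged from -0.16 to 0.10. WAPL had 2 of 5 that fell, 11730899_s_at by 0.23 and 11750328_s_at by 0.26 (limma adjusted p = 0.00869 and 0.0390), while the other 3 lay between -0.11 and 0.075. Without 11730897_a_at or without 11750329_x_at WAPL passed the test (-0.13 and -0.14, limma adjusted p = 0.0306 and 0.0235).

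Whether a probe set changed unlike its own gene was tested by fitting its deviation from the gene mean, a comparison added after the values were seen. Over all 38590 probe sets of genes with at least 2, 17.2% deviated, and 9 of these 31 did (29%). Of SMC1A 3 of 5 deviated, 11718879_s_at and 11752632_a_at downward and 11718878_a_at upward (limma adjusted p = 0.00353, 0.0127 and 0.0143). Both ESPL1 probe sets deviated (adjusted p = 0.0205), which is a single comparison since they mirror each other around their mean. In STAG1, STAG2, WAPL and SGO1 1 probe set each deviated, and in RAD21, SMC3 and CDCA5 none did. The isoforms that these probe sets read were not analysed here.

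The size of the fall also depended on the level the arrays were set to. Set to the level of the hybridization spike-ins, all 9 genes fell, as did 50.7% of all genes, and the medians were -0.31 for the 9 and -0.17 for all genes. With poly-A spike-ins all 9 fell, as did 30.6% of all genes, with medians of -0.22 and -0.084. SMC3, STAG2 and WAPL were then at -0.23, -0.22 and -0.27 with hybridization spike-ins (limma adjusted p between 0.00255 and 0.00886), so whether these 3 pass depends on the scaling. CDCA5, RAD21 and SMC1A stood at -0.82, -0.57 and -0.56 with hybridization spike-ins. Such centring shifts all genes alike, so it leaves each gene's distance from the others as it was.

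**Figure D3:**
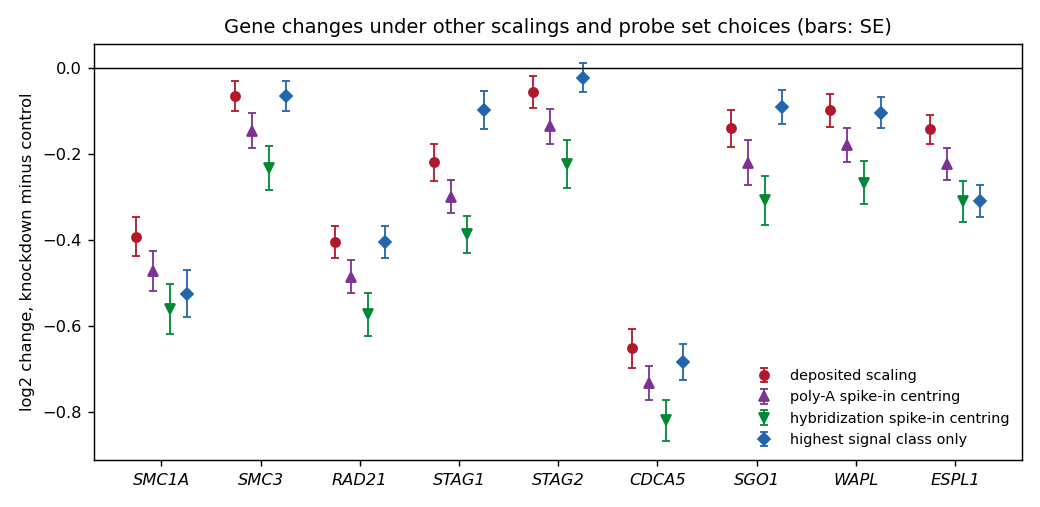
Log2 change (knockdown minus control) of the 9 genes with the deposited scaling, with arrays set to the level of poly-A or hybridization spike-ins, and with only the probe sets of each gene's highest signal class. Bars are SEs. Spike-in centring lowers every gene by the same amount. The choice of the highest class moves ESPL1 to -0.31, SMC1A to -0.53 and STAG1 to -0.098, where STAG1 did not pass the test.

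The 7 other lists, of 48 genes, cover the rest of the pathway. In all 23 fell (47.9%) and 7 rose, while 18.6% of all genes fell and 21.4% rose. These shares of all genes stand as the background for each list below. The lists were chosen with earlier results of these data known, so the contrasts describe them and test nothing. The 23 falls include PTTG2 and PTTG3P, whose _x_at probe sets are described above.

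Of 8 loaders and regulators of cohesin, 3 fell and 0 rose (median -0.073), where 18.6% of all genes fell. The acetyltransferases that lock cohesin onto chromatids were among the falls. ESCO2, which acts in S phase, was -0.40, -0.24 and -0.11 in knockdown arrays, against 0.11, 0.30 and 0.26 in control arrays, a change of -0.47 (SE 0.08, limma adjusted p = 0.00172). That is the mean of 2 middle-class probe sets that differed. The one of larger variance gave -0.76 (SE 0.08), so the other changed less. ESCO1 changed by -0.27 (SE 0.05) and the loop anchor CTCF by -0.15 (SE 0.04, limma adjusted p = 0.0243). The call of CTCF was lost without knockdown replicate 1, knockdown replicate 2 or control replicate 1, where it stood between -0.14 and -0.12. It was also lost with the replicate number as a block (limma adjusted p = 0.0542). CTCF has 1 probe set, so reading each gene from its largest-variance probe set left its values as they were. In that fit over all genes it did not pass either (limma adjusted p = 0.0624). The loader subunits NIPBL (-0.096) and MAU2 (-0.037), the WAPL partners PDS5A (-0.013) and PDS5B (-0.015) and the SMC3 deacetylase HDAC8 (-0.051) did not pass.

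Of 7 genes that couple cohesion to replication forks, 3 fell and 0 rose (median -0.12), against the 18.6% of all genes that fell. DSCC1 and CHTF8, subunits of the alternative clamp loader that serves cohesion, changed by -0.28 (SE 0.04) and -0.20 (SE 0.04), and the fork protein WDHD1 by -0.26 (SE 0.05), or -0.15 with its highest signal class only. The helicase DDX11 (0.076), the fork protection pair TIMELESS (-0.12) and TIPIN (-0.034) and CHTF18 (-0.072) did not pass.

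**Figure D4:**
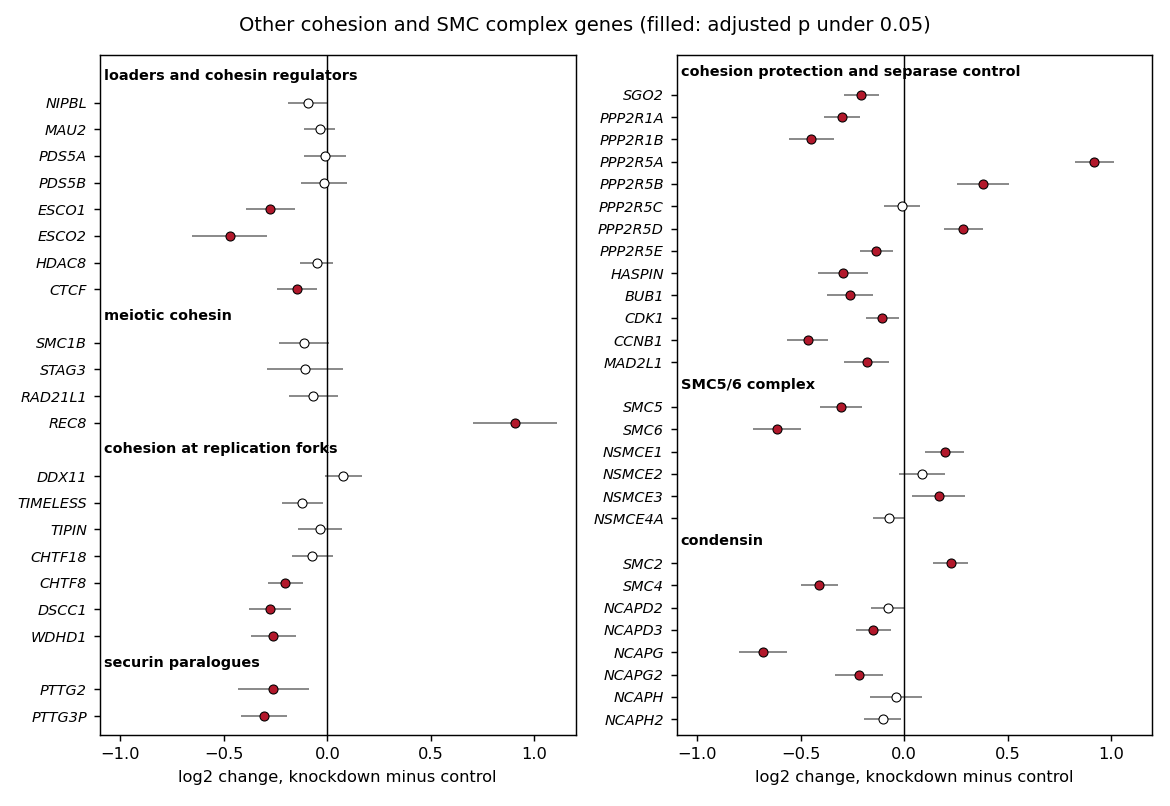
Log2 change (knockdown minus control) with 95% intervals of 48 further genes of cohesion and of the related SMC complexes, by list. Filled circles passed the test (adjusted p under 0.05 over all genes). REC8 and PPP2R5A had the largest rises of the 48, at 0.91 and 0.92.

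The list of cohesion protection and separase control had 9 falls and 3 rises among 13 genes (median -0.18), or 69.2% lower, while 18.6% of all genes fell and 21.4% rose. Cyclin CCNB1, whose complex with CDK1 restrains separase, was -0.19, -0.23 and -0.32 in knockdown arrays, against 0.23, 0.24 and 0.19 in control arrays, a fall of 0.47 (SE 0.04). CDK1 itself changed by -0.11 (limma adjusted p = 0.0391), a call lost without any one of the 6 arrays (adjusted p between 0.0507 and 0.135). Without probe sets marked as shared it stood at -0.055, and the call was kept in 7 of 16 alternatives. SGO2, the shugoshin paralogue, changed by -0.21 (SE 0.04), a call lost with its largest-variance probe set (-0.19, limma adjusted p = 0.179). The kinases BUB1 and HASPIN, whose histone marks place shugoshin and the chromosomal passengers at centromeres, changed by -0.26 (SE 0.05) and -0.29 (SE 0.05). HASPIN was read from 1 middle-class probe set, which is marked as shared. MAD2L1, a checkpoint protein, changed by -0.18, a call lost without knockdown replicate 3 (-0.15, limma adjusted p = 0.0538). Without probe sets marked as shared it was lost too (-0.12, limma adjusted p = 0.0784).

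The subunits of PP2A, the phosphatase that shugoshin recruits, moved in both directions. PPP2R5A, a regulatory subunit of the B56 family, was 0.47, 0.42 and 0.50 in knockdown arrays, against -0.51, -0.42 and -0.44 in control arrays. It rose by 0.92 (SE 0.04, limma adjusted p = 1.94e-06), to 189% of the control signal. PPP2R5B and PPP2R5D, of the same family, rose by 0.38 (SE 0.05) and 0.29 (SE 0.04), PPP2R5E changed by -0.14 and PPP2R5C (-0.010) did not pass. The call of PPP2R5E was lost without knockdown replicate 2, control replicate 1 or control replicate 2 (-0.13 to -0.12), and with its highest signal class only (-0.081). The rise of PPP2R5D did not pass with hybridization spike-ins (0.12) or with its highest signal class only (0.14). The scaffold subunits PPP2R1A and PPP2R1B fell by 0.30 (SE 0.04) and 0.45 (SE 0.05), but PPP2R1B gave -0.093 with its high-class probe set only and did not pass.

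Of 4 cohesin subunits known from meiosis, REC8, the meiotic kleisin that takes the place of RAD21, was the only one that changed. Its single middle-class probe set was 0.36, 0.37 and 0.65 in knockdown arrays, against -0.40, -0.36 and -0.57 in control arrays. It rose by 0.91 (SE 0.09, limma adjusted p = 8.78e-05), while SMC1B (-0.11), STAG3 (-0.11) and RAD21L1 (-0.067) did not pass. All probe sets of SMC1B and STAG3 were of the low class, of which 4.27% fell over all probe sets. RAD21L1 was read from a middle-class probe set. Of all genes, 40.1% changed in either direction.

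The related SMC complexes also held falls and rises. Of 8 condensin genes 4 fell and 1 rose (median -0.13), against 18.6% and 21.4% of all genes. NCAPG changed by -0.68 (SE 0.05), SMC4 by -0.41 (SE 0.04), NCAPG2 by -0.22 and NCAPD3 by -0.15, and SMC2 by 0.22 (SE 0.04). The rise of SMC2 did not pass with hybridization spike-ins (0.056), and the fall of NCAPG2 did not pass with its highest signal class (-0.063). With that class NCAPG still fell, at -0.40. Of 6 genes of the SMC5/6 complex, which acts in DNA repair, 2 fell and 2 rose, where 40.1% of all genes changed in either direction. SMC6 changed by -0.62 (SE 0.05) and SMC5 by -0.31 (SE 0.04), and with its highest signal class only SMC6 still fell, at -0.32, while SMC5 stood at -0.198 without probe sets marked as shared. NSMCE1 rose by 0.195 and NSMCE3 by 0.17 (limma adjusted p = 0.0439). NSMCE1 (0.027) and NSMCE3 (-0.00038, SE 0.05) did not pass with hybridization spike-ins. The call of NSMCE3 was also lost without knockdown replicate 1 or 3, or control replicate 1 or 3, where it lay between 0.12 and 0.17. It was kept in 4 of 15 alternatives. Differences between these complexes and cohesin were not tested.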

How the data were processed

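Biotin-labelled cRNA was made from Trizol-extracted total RNA by Affymetrix's protocol, per the labels' protocols. The deposited log2 values came with limma, RMA and affy named in the submitters' processing notes, with no version, role or order given. Base 2 was taken from RMA's output, and the median of each probe set over the 6 arrays was 0 (within 4.85e-07), which shows a centring that no source describes. Of 49395 probe sets 102 were array controls, and 44988 had 1 gene symbol. The names come from the array's annotation, of which 44961 matched a gene table of GRCh38.p14 by gene number.

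A gene's value was the mean of its probe sets, with no filter on low values, because centred values hold no level. The difference of knockdown minus control was fitted in limma 3.58.1 (R 4.3.3, lmFit and eBayes) over all 18132 genes or 49293 probe sets, two-sided, with Benjamini-Hochberg adjustment. The calculation was tested on simulated data. Depth does not apply to arrays, and 3 per group limit the precision.

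The genes and lists were chosen with earlier results of these data known. Named are UBE2S, the 10 genes chosen, their probe sets and, in the lists, up to 3 changed genes per direction, or any gene of lists of up to 8. PPP2R5E, SGO2, BUB1, HASPIN, CDK1, MAD2L1 and PPP2R5C go beyond this rule and were named after their values were seen, to describe the list whole. Alternatives were other probe set choices, scalings, weights, variance models, a replicate block and leaving out each array. The use of each gene's highest signal class and the deviations from gene means were added after seeing the data. The pairs of genes were not among the planned tests. Rounding can by chance place a probe set in a class that is too high, and a class does not show detection.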

Additional observations from a re-analysis of the deposited data

How the results depend on the processing

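Across 16 alternatives, between 4 and 9 of the 9 measured genes changed, all of them downward. The lowest count came with the highest signal class of each gene and the highest with either spike-in centring. Leaving out each array in turn gave 5 to 6 of these genes, 14 to 16 of their probe sets, 26 to 29 of the 48 pathway genes and 6331 to 6637 of all genes. With hybridization spike-in centring 24 of the 31 probe sets and 10960 of all genes passed, against 15 and 7266 with the deposited scaling, with 1764 genes higher and 9196 lower, against 3888 and 3378. With that centring NSMCE3 stood at -0.00038 (SE 0.05), no difference either way. With poly-A spike-ins 2705 genes were higher and 5546 lower.

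WAPL passed the test with the largest-variance probe set (-0.26) and with array weights (-0.10), besides both spike-in scalings. STAG1 passed in 14 of 16 alternatives. It did not pass without probe sets marked as shared (-0.15) or with its highest signal class only (-0.098). SGO1 kept its call in 6 of 16 alternatives, and of the 30 changed pathway genes 18 kept theirs in all that could be run. UBE2S has only a probe set marked as shared, so that alternative gave no value for it. CTCF, HASPIN, NSMCE1, NSMCE3, PTTG2 and PTTG3P likewise had no value there.

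The replicate numbers were not treated as pairing the samples. Deviations from the group means of same-numbered arrays correlated at -0.030, -0.016 and -0.10, and 0 of 6 arrays correlated best with its own number. With the replicate block 5 of the 9 genes, 17 of the 31 probe sets, 27 pathway genes and 6684 of all genes changed. Signal over background is unknown in centred values, which limits what the dim probe sets of ESPL1 and SGO1 can show.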
